A study of Homo sapiens with 8 samples.

Results

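The 42 genes described here serve glutathione metabolism and the antioxidant programme of the transcription factor NRF2. They were taken from a list of names, each by the accessible region at its gene end in an ATAC-seq study of drug-resistant ovarian cancer cells. ATAC-seq reads mark open chromatin, where the transposase Tn5 can insert sequencing adapters. A gene-end peak was the peak with the highest mean level within 1 kb of either end of a gene's RefSeq span on hg38. Of the 42 genes, 39 had a tested gene-end peak, 39 had a tested peak somewhere over the span, and 40 had either. The glutathione peroxidase gene GPX7 and the transferase gene GSTA1 had neither. Among all protein-coding genes, 15949 of 19970 had a tested gene-end peak. The 39 members had 38 distinct gene-end peaks, because the neighbouring transferase genes GSTM2 and GSTM4 shared 1.

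All libraries came from A2780, an established human ovarian cancer line whose genotype is labelled WT in every group. The groups were cells resistant to cisplatin (labelled treatment Cisplatin), cells resistant to paclitaxel (Paclitaxel), cells resistant to both drugs (Cisplatin/Paclitaxel, called dual-resistant here) and control A2780 cells (labelled NA). Each group had 2 libraries, 8 in all. Cisplatin crosslinks DNA and paclitaxel stabilises microtubules. The sources used here do not give whether a resistant line is a clone or a pool, or whether drug was present at collection. The labels do not state whether the pair of libraries in a group had separate cultures behind them, so p-values measure only the spread between these libraries, which may be technical.

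NRF2, encoded by NFE2L2, is kept low by KEAP1, an adaptor that hands it to a CUL3 ubiquitin ligase. Electrophiles and oxidants disable KEAP1, and NRF2 then pairs with small MAF proteins at antioxidant response elements near its target genes. Those targets make and recycle glutathione, couple it to reactive compounds, reduce thioredoxin and supply NADPH, and glutathione can bind platinum drugs.

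Libraries held 7693492 to 9304798 reads in peaks, and levels are given in CPM, the deposited read count scaled to library size. Where no read was counted, the level may still be as high as 0.322 to 0.390 CPM by library (3 reads, counting error only). Peaks were all 1001 bp wide, so their levels can be set side by side. Of the markers of epithelial and ovarian carcinoma cells, 7 of 9 had a tested gene-end peak, 6 of them distinct because KRT8 and KRT18 share 1. Their mean levels, with the shared peak counted once, summed to 35.1 CPM in cisplatin-resistant, 28.5 CPM in paclitaxel-resistant and 36.1 CPM in dual-resistant cells, against 36.7 CPM in control cells. KRT19 and MUC16 had none. Fibroblast markers summed to 71.3, 73.1 and 49.5 CPM in the 3 resistant lines, against 34.5 CPM in control cells, over 6 of 7 genes with a peak (FAP had none). A few genes carried these sums and others went the other way. PDGFRB averaged 26.1 CPM in cisplatin-resistant cells, against 5.18 CPM in control cells, and LUM 25.8 CPM in paclitaxel-resistant cells, against 1.42 CPM in control cells. COL1A2 averaged 3.32 CPM in cisplatin-resistant cells, against 6.02 CPM in control cells. Haematopoietic markers (6 of 7, without PTPRC) summed to 34.5, 40.5 and 35.9 CPM, against 34.8 CPM in control cells. Endothelial markers (2 of 6, without PECAM1, CDH5, VWF and TEK) summed to 12.4, 13.2 and 7.44 CPM, against 3.88 CPM in control cells. ROBO4 made up 10.8 CPM of the first sum, and CLDN5 11.6 and 5.98 CPM of the others. Whether these levels have a part in the results below was not tested.

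Promoter sequences are shown for 4 members whose accessibility results are described below and whose windows hold the antioxidant response core. ME1 and MGST1 had called differences of at least 1 on the log2 scale, TXNRD1 has a pair of starts that behaved differently, and GSTP1 carries the same match as ME1 with no called difference. Each window runs from 250 bases before to 50 after an annotated start (RefSeq, GRCh38.p14), and capitals mark the letters TGACNNNGC or, on the opposite strand, GCNNNGTCA.
ME1, chr6:83431002-83431301, minus strand: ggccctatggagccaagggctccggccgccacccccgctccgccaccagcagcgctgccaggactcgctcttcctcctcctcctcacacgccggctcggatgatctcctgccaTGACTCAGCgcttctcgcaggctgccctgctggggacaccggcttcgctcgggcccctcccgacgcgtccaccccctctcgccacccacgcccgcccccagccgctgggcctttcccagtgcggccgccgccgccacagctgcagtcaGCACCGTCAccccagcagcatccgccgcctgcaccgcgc
TXNRD1, the first start, chr12:104215529-104215828, plus strand: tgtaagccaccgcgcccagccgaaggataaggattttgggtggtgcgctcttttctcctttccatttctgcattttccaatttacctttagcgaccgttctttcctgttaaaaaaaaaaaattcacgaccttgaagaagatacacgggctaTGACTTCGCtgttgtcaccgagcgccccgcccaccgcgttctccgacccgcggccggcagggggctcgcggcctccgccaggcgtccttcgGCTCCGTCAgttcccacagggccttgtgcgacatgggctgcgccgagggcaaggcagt
TXNRD1, the second start, chr12:104286782-104287081, plus strand: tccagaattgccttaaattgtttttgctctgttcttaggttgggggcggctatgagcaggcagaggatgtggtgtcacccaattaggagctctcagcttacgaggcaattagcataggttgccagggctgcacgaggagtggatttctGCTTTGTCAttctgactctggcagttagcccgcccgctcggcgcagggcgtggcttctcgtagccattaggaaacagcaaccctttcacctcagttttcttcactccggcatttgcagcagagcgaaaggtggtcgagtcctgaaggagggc
MGST1, chr12:16346865-16347164, plus strand: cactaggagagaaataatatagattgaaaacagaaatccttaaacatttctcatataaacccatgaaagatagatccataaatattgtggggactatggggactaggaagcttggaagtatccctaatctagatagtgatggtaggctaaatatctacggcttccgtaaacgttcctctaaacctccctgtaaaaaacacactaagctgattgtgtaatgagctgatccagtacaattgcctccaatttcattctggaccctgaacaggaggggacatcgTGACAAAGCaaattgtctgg
GSTP1, chr11:67583562-67583861, plus strand: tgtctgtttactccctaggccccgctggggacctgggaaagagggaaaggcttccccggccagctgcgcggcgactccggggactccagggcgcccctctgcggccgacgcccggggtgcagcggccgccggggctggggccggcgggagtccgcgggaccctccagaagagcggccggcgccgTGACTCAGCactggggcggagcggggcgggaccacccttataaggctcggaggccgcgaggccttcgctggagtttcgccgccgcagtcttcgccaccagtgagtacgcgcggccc
Of 46 windows of 35 members with an entry, 12 windows of 11 members held the core (26.1%), against 4687 of 35116 windows of all genes (13.3%). The other members with a match were PGD, GCLM, GSTA4, GSTO1, GPX2, KEAP1 and GGT1. A match is a run of letters, and says nothing of binding. GSS, GSR, MGST2, HMOX1, PRDX1, AKR1B10 and SOD1 have no window here.

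Most of these genes had an open gene end in every group. The mean level over all libraries ran from 1.70 CPM at AKR1B10, an aldo-keto reductase gene, to 115 CPM at the transferase gene GSTA4, with a median of 22.3 CPM. Each resistant line was set against the same control libraries, so these comparisons share them. A peak was called at a limma adjusted p under 0.05 (Benjamini-Hochberg over all tested peaks), and differences are log2 differences of CPM + 0.5. In cisplatin-resistant cells 5 members were called higher and 10 lower (38.5% of 39), where 39.7% of all gene ends were called (11.1% higher and 28.6% lower). The 10 lower count the peak shared by GSTM2 and GSTM4 for both genes. In paclitaxel-resistant cells 7 members were called higher and 1 lower (20.5%), against 22.4% of all gene ends (12.7% higher and 9.68% lower). In dual-resistant cells 1 member was called higher and 4 lower (12.8%), against 19.7% of all gene ends (4.86% higher and 14.8% lower). The members' share lay near that of all genes in the first pair of comparisons. In the third it was lower, but the order depended on the setting, and the difference was not tested. In dual-resistant cells 28.2% of the members and 25% of all gene ends were called with regional medians subtracted, and 25% and 20.2% at the annotated start. Without control library 1, fewer members and a smaller share of all gene ends were called in dual-resistant cells. With all libraries, edgeR called 8 members there (20.5%), against 29.4% of all gene ends. The median log2 difference of the members was -0.12, 0.19 and -0.05 in the 3 comparisons, and that of all gene ends was -0.19, 0.01 and -0.13. Single members ran from -1.08 to 2.55 in cisplatin-resistant, from -0.64 to 1.95 in paclitaxel-resistant and from -0.61 to 1.31 in dual-resistant cells. Of the 39, 23 were called in at least 1 line and 16 in none. The matching share of all gene ends was not counted, so this says nothing particular of the members.

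The split of calls depended on how libraries were scaled. With median-ratio scaling the members called in cisplatin-resistant cells were 6 higher and 4 lower, with quantile scaling 7 and 5, and with edgeR on recovered reads 6 and 5. These were 25.6%, 30.8% and 28.2% of the 39, against 32.1%, 35.9% and 33.7% of all gene ends. In paclitaxel-resistant cells, median-ratio scaling and edgeR each called 16 members, and subtracting the median difference of each 5 Mb region called 14, all of them higher. These were 41.0%, 41.0% and 35.9% of the 39. The share of all gene ends called rose too, from 22.4% to 32.1%, 31.4% and 29.0%. In dual-resistant cells, quantile scaling called 2 higher and 2 lower, median-ratio scaling and edgeR each 1 and 7, and regional medians 2 and 9. In that order of settings, these were 10.3%, 20.5%, 20.5% and 28.2% of the 39. Of all gene ends, 14.5%, 27.1%, 29.4% and 25% were called. Median-ratio scaling moved the median of all gene ends to -0.08 in cisplatin-resistant cells and to 0.18 in paclitaxel-resistant cells, and the members' medians to -0.01 and 0.36. It moved the median of all gene ends to -0.13 (0.05 without it) for dual-resistant against cisplatin-resistant cells and to -0.38 (-0.14 without it) for dual-resistant against paclitaxel-resistant cells. Below, settings are counted out of 18, the one reported included.

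**Figure D1:**
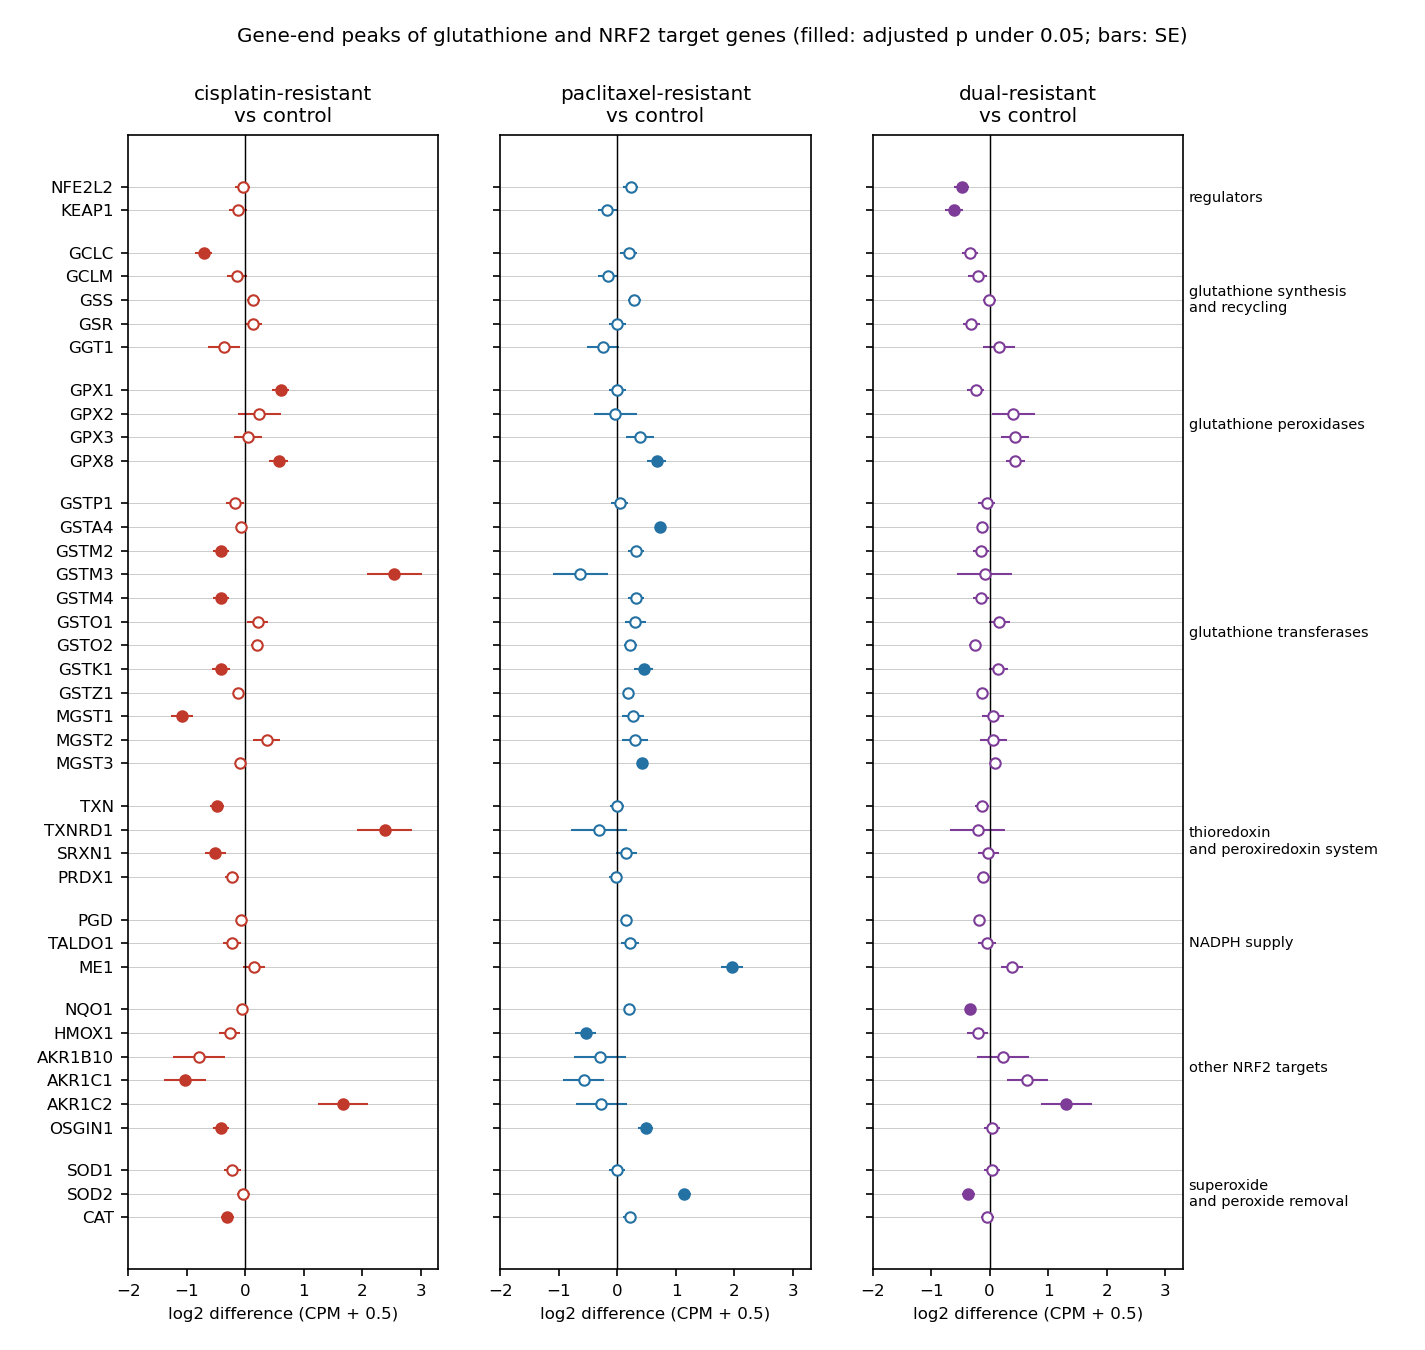
Log2 difference from control (x axis, CPM + 0.5) at the gene-end peak of each of 39 members (rows, by role) in cisplatin-, paclitaxel- and dual-resistant cells. Points are limma estimates from 2 libraries per group, bars are standard errors, and filled points have an adjusted p under 0.05; GSTM3, TXNRD1 and AKR1C2 lie far right in cisplatin-resistant cells and ME1 and SOD2 in paclitaxel-resistant cells.

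**Figure D2:**
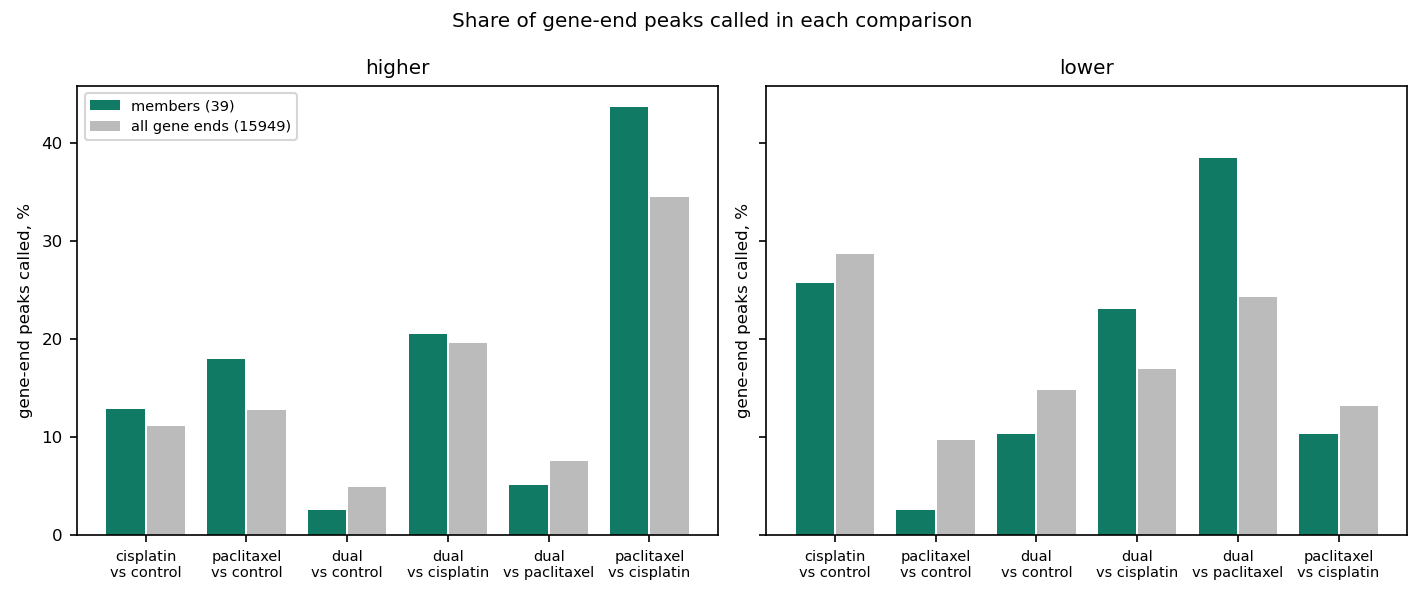
Share of gene-end peaks called higher (left) or lower (right) in each comparison (y axis, percent), for 39 members (green) and all 15949 protein-coding genes with a gene-end peak (grey). In paclitaxel-resistant cells against control, 12.7% of all gene ends were called higher.

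Both regulators lay slightly lower in dual-resistant cells. The NFE2L2 gene-end peak, at chr2:177263256-177264256, had 34.1 and 32.3 CPM in cisplatin-resistant, 42.6 and 37.8 CPM in paclitaxel-resistant and 21.4 and 27.8 CPM in dual-resistant libraries 1 and 2, against 36.1 and 32.4 CPM in control libraries. Both dual-resistant libraries were below both control libraries, and NFE2L2 fell by 0.48 ± 0.13 (log2, SE, limma adjusted p = 0.0036). In paclitaxel-resistant cells NFE2L2 was not called as reported, but was called higher with median-ratio scaling (0.39) and edgeR (0.39). KEAP1 had 13.4 and 20.5 CPM in dual-resistant cells, against 26.8 and 24.5 CPM in control cells, and fell by 0.61 ± 0.16 (limma adjusted p = 0.00288). Its levels in the other lines, 20.1 and 27.2 CPM in cisplatin-resistant and 26.8 and 19.1 CPM in paclitaxel-resistant cells, overlapped control. Neither call held without dual-resistant library 1 (limma adjusted p = 0.245 for NFE2L2 and 0.368 for KEAP1) or without control library 1 (0.1001 and 0.0709), and with regional medians subtracted the NFE2L2 difference was -1.17.

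Among the genes that make and recycle glutathione, 1 of 5 was called in cisplatin-resistant cells, where 39.7% of all gene ends were called. GCLC encodes the catalytic subunit of glutamate-cysteine ligase, the rate-limiting enzyme of glutathione synthesis. Its gene-end peak, at chr6:53544081-53545081, had 15.9 and 17.5 CPM in cisplatin-resistant, 30.8 and 32.5 CPM in paclitaxel-resistant and 21.1 and 22.6 CPM in dual-resistant cells, against 25.9 and 29.6 CPM in control cells. The cisplatin-resistant libraries were the lowest of the 8, and the peak fell by 0.71 ± 0.14 (log2, limma adjusted p = 2.06e-05). With regional medians subtracted the difference was -1.10. In dual-resistant cells GCLC was not called as reported, but was called lower with median-ratio scaling (-0.41) and edgeR (-0.44). GCLM, the modifier subunit of the same enzyme, had 15.6 and 14.8 CPM in cisplatin-resistant, 16.5 and 13.4 CPM in paclitaxel-resistant and 15.1 and 13.9 CPM in dual-resistant cells, against 15.7 and 17.9 CPM in control cells. Its differences of -0.13, -0.17 and -0.21 were not called. With regional medians subtracted, GCLM was called lower in cisplatin-resistant cells, by 0.98. GSR, which reduces oxidised glutathione and shares its gene end with UBXN8, had 24.8 and 26.4 CPM in cisplatin-resistant, 25.5 and 21.2 CPM in paclitaxel-resistant and 16.1 and 21.6 CPM in dual-resistant cells, against 22.5 and 24.1 CPM in control cells, with no call. It was called lower in dual-resistant cells with regional medians subtracted (-0.48) and without dual-resistant library 2 (-0.52). GSS (glutathione synthetase, its end shared with MYH7B) and GGT1 (gamma-glutamyltransferase) were not called at their gene ends in any line. Over GGT1, 3 of 11 peaks were called lower in cisplatin-resistant cells, against 14.7% of peaks over all genes. The strongest GGT1 peak, near its second start, was among them.

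The rest of the GCLC gene behaved unlike its start, a pattern picked out after its values were seen. In cisplatin-resistant cells, 15 of the 19 peaks over GCLC were called higher and 1, the gene-end peak, lower. Over all tested peaks in protein-coding spans, 32.0% were called in this comparison, 17.3% higher. The peak 27981 bp from the start had 7.99 and 9.12 CPM in cisplatin-resistant, 2.31 and 2.36 CPM in paclitaxel-resistant and 0.989 and 0.645 CPM in dual-resistant cells, against 1.56 and 1.16 CPM in control cells, a log2 difference of 2.29 in the cisplatin-resistant line (limma adjusted p = 6.4e-07). The called body peaks averaged at most 8.56 CPM in cisplatin-resistant cells, where the gene-end peak averaged 16.7 CPM. In paclitaxel-resistant cells the 19 peaks had differences between -0.21 and 0.85 from control. Upstream of the gene, 16 of 19 peaks within 100 kb were also called higher in cisplatin-resistant cells, so the gain was not limited to GCLC. Over all alternative settings, 12 to 15 of the 19 peaks over the gene were called higher.

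Of the 4 glutathione peroxidase genes with a gene-end peak, GPX1 and GPX8 were called. GPX1, which removes hydrogen peroxide in the cytosol and mitochondria, had 37.3 and 32.3 CPM in cisplatin-resistant, 26.1 and 19.6 CPM in paclitaxel-resistant and 18.7 and 19.5 CPM in dual-resistant cells, against 23.8 and 21.5 CPM in control cells. Both cisplatin-resistant libraries stood above the other 6, and GPX1 rose by 0.61 ± 0.14 (log2, limma adjusted p = 0.00036). With regional medians subtracted the difference was 0.30 and was not called. GPX8, a peroxidase of the endoplasmic reticulum, had 20.1 and 19.2 CPM in cisplatin-resistant, 22.7 and 19.6 CPM in paclitaxel-resistant and 19.4 and 16.4 CPM in dual-resistant cells, against 13.9 and 12.2 CPM in control cells. Every resistant library exceeded both control libraries. GPX8 rose by 0.57 (limma adjusted p = 0.00292) in cisplatin-resistant and by 0.67 (0.000889) in paclitaxel-resistant cells, and the difference of 0.44 in dual-resistant cells missed the threshold (0.0534). The cisplatin-resistant call of GPX8 was lost with regional medians subtracted (0.40) and without control library 2, and the paclitaxel-resistant one without paclitaxel-resistant library 1. GPX2 and GPX3 were not called.

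The transferases couple glutathione to reactive compounds. Of 12, 1 was called higher and 4 lower in cisplatin-resistant cells, and 3 higher in paclitaxel-resistant cells. Of all gene ends, 11.1% were called higher and 28.6% lower in the former, and 12.7% higher in the latter. The 4 lower count the peak shared by GSTM2 and GSTM4 for both genes. It lies over the GSTM2 start and 11541 bp from the GSTM4 start. Of the 3 peaks over GSTM4, 1 was called in cisplatin-resistant cells, the shared one. In dual-resistant cells limma called 0 of 12, with 1 at an unadjusted p under 0.05, and edgeR called 1. Of all gene ends, limma called 19.7% there and edgeR 29.4%. GSTP1, the pi-class transferase long studied in platinum resistance, had 20.3 and 17.9 CPM in cisplatin-resistant, 22.5 and 21.8 CPM in paclitaxel-resistant and 19.4 and 22.1 CPM in dual-resistant cells, against 21.4 and 21.6 CPM in control cells. All 8 libraries lay in a narrow band, and GSTP1 was not called. The mu-class gene GSTM3 was nearly closed outside the cisplatin-resistant line. Its peak, at chr1:109739992-109740992, had 8.33 and 6.55 CPM in cisplatin-resistant cells, 0 and 1.01 CPM in paclitaxel-resistant cells and 1.24 and 0.43 CPM in dual-resistant cells, against 0.52 and 1.29 CPM in control cells. The gain in cisplatin-resistant cells was 2.55 ± 0.47 (log2, limma adjusted p = 5.23e-06; ratio of mean CPM 8.23) and was called under each of 18 settings.

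MGST1, a microsomal transferase that also reduces lipid peroxides, moved the other way. Its gene-end peak, at chr12:16347068-16348068, covers 3 annotated starts and had 5.96 and 6.31 CPM in cisplatin-resistant, 16.4 and 16.3 CPM in paclitaxel-resistant and 15.1 and 13.3 CPM in dual-resistant cells, against 13.3 and 13.9 CPM in control cells. The cisplatin-resistant libraries were far below the other 6, by 1.08 ± 0.19 against control (log2, limma adjusted p = 1.69e-06; ratio of mean CPM 0.452). With regional medians subtracted this was -0.75, and MGST1 in dual-resistant cells, at 0.06 without the subtraction, turned to -0.92 and was called lower. GSTA4, the alpha-class transferase that acts on the lipid peroxidation product 4-hydroxynonenal, had the most open gene end of the list. It had 91.6 and 101 CPM in cisplatin-resistant, 177 and 160 CPM in paclitaxel-resistant and 104 and 83.6 CPM in dual-resistant cells, against 105 and 97.95 CPM in control cells. Both paclitaxel-resistant libraries stood apart, and GSTA4 rose by 0.72 ± 0.08 (limma adjusted p = 2.83e-13; 0.32 with regional medians subtracted). GSTK1 fell by 0.41 in cisplatin-resistant cells and rose by 0.45 in paclitaxel-resistant cells (limma adjusted p = 0.0348 and 0.0373). MGST3 rose by 0.43 in paclitaxel-resistant cells, and the peak shared by GSTM2 and GSTM4 fell by 0.41 in cisplatin-resistant cells (limma adjusted p = 5.93e-05 and 0.015). The GSTK1 calls were weak: 10 of 18 settings kept the first, not those without cisplatin-resistant library 2 or either control library. Of 18 settings, 12 kept the second, not those without paclitaxel-resistant library 2 or either control library. Both GSTK1 calls were also lost with a pseudocount of 0.1 CPM and quantile scaling. The first was lost as well with median-ratio scaling, edgeR and a fit of the compared groups alone, and the second with regional medians subtracted. The GSTM2 and GSTM4 call held under 12 of 18 settings, and was lost without either cisplatin-resistant library or control library 1. Quantile scaling, median-ratio scaling and edgeR lost it too. GSTM and GSTA genes have close paralogs, and the sources used here do not give how reads that map to several places were treated, so their values are uncertain.

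GSTO2, an omega-class transferase, had a second start that opened in all 3 resistant lines, a result picked out after its values were seen. Its gene-end peak at the first start had 57.2 and 52.6 CPM in cisplatin-resistant, 58.6 and 52.8 CPM in paclitaxel-resistant and 37.3 and 42.5 CPM in dual-resistant cells, against 46.4 and 48.9 CPM in control cells, and was not called against control. The second start lies 5.98 kb downstream, under the peak at chr10:104274513-104275513. There the levels were 8.33 and 7.48 CPM in cisplatin-resistant, 15.4 and 19.7 CPM in paclitaxel-resistant and 22.4 and 25.04 CPM in dual-resistant cells, against 2.08 and 2.96 CPM in control cells. Every resistant library exceeded both control libraries, by log2 differences of 1.49, 2.58 and 3.02 (limma adjusted p = 5.76e-09, 1.36e-19 and 1.94e-23). All 3 were called under each of 18 settings. The dual-resistant line exceeded the cisplatin-resistant line by 1.53 (2.03e-09), and its difference of 0.43 from the paclitaxel-resistant line was not called (0.132).

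In the thioredoxin and peroxiredoxin system, 1 of 4 members was called higher and 2 lower in cisplatin-resistant cells. Of all gene ends, 11.1% were called higher and 28.6% lower in that line. TXNRD1, the selenoprotein that reduces thioredoxin with NADPH, opened at its first start in that line and did not differ at its second. The peak at the first start, chr12:104215449-104216449, had 6.08 and 5.50 CPM in cisplatin-resistant, 0.486 and 0.450 CPM in paclitaxel-resistant and 0.247 and 0.967 CPM in dual-resistant cells, against 0.260 and 1.42 CPM in control cells. Only the cisplatin-resistant libraries were clearly open, with a gain of 2.38 ± 0.47 (log2, limma adjusted p = 2.54e-05; 1.71 without control library 1). The second start, 71.3 kb downstream, had the strongest peak over the gene, with 37.6 and 42.2 CPM in cisplatin-resistant, 44.4 and 39.7 CPM in paclitaxel-resistant and 34.0 and 32.5 CPM in dual-resistant cells, against 37.7 and 39.5 CPM in control cells. It was not called in any line against control. Of the 25 peaks over TXNRD1, 6 were called higher in cisplatin-resistant cells, 5 of the 6 peaks before the second start and 1 of the 19 at or after it. That is 24.0% of its peaks, where 17.3% of peaks over all genes were called higher. The peak 3933 bp after the first start had 22.8 and 22.2 CPM there, and the other 6 libraries had at most 1.43 CPM (log2 difference 4.14 from control, limma adjusted p = 1.2e-13). This peak was picked out after its values were seen.

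SRXN1, which repairs overoxidised peroxiredoxins, was lower at its annotated start in all 3 resistant lines. That peak, at chr20:652981-653981 and the strongest over the gene, had 9.34 and 14.8 CPM in cisplatin-resistant, 11.05 and 12.8 CPM in paclitaxel-resistant and 7.54 and 10.96 CPM in dual-resistant cells, against 18.2 and 17.0 CPM in control cells. Every resistant library was below both control libraries. SRXN1 fell there by 0.56, 0.54 and 0.91 (limma adjusted p = 0.0194, 0.041 and 0.000214). Of 18 settings, 12 kept the call in cisplatin-resistant cells, 9 in paclitaxel-resistant cells and 17 in dual-resistant cells. The first was lost without cisplatin-resistant library 1 or either control library, the second without any one library of either group, and the third without dual-resistant library 1. The first and second were also lost with median-ratio scaling, regional medians subtracted and edgeR. The second was lost as well with quantile scaling and a pseudocount of 0.1 CPM. The gene-end peak by the rule was the one at the other end of the gene, with 11.03 and 9.59 CPM in cisplatin-resistant, 15.3 and 18.0 CPM in paclitaxel-resistant and 14.5 and 14.8 CPM in dual-resistant cells, against 15.3 and 14.4 CPM in control cells. It fell by 0.51 in cisplatin-resistant cells (limma adjusted p = 0.0182). This call held under 12 of 18 settings, not without cisplatin-resistant library 2 or either control library. It was also lost with median-ratio scaling, regional medians subtracted and edgeR. TXN, thioredoxin itself, had 27.8 and 27.7 CPM in cisplatin-resistant, 35.7 and 41.9 CPM in paclitaxel-resistant and 34.3 and 37.3 CPM in dual-resistant cells, against 37.0 and 41.2 CPM in control cells. It fell by 0.49 in cisplatin-resistant cells (limma adjusted p = 0.000695). PRDX1 was not called.

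Of the genes that supply NADPH, PGD and TALDO1 of the pentose phosphate pathway were not called, and ME1, cytosolic malic enzyme, changed more than any other member's gene end in paclitaxel-resistant cells. The ME1 peak, at chr6:83430866-83431866 over the start shown above, had 33.4 and 29.7 CPM in paclitaxel-resistant cells, 9.79 and 7.60 CPM in cisplatin-resistant cells and 9.27 and 11.4 CPM in dual-resistant cells, against 7.67 and 7.85 CPM in control cells. Only the paclitaxel-resistant libraries stood apart. The gain there was 1.95 ± 0.19 (log2, limma adjusted p = 1.79e-15; ratio of mean CPM 4.06), between 1.45 and 2.18 over 18 settings. The other 4 peaks over ME1 were not called in this comparison. SOD2, the mitochondrial superoxide dismutase, also opened in paclitaxel-resistant cells, at a gene end shared with ACAT2. The peak at chr6:159761702-159762702 had 37.6 and 34.5 CPM in cisplatin-resistant, 83.3 and 80.8 CPM in paclitaxel-resistant and 30.7 and 26.5 CPM in dual-resistant cells, against 37.7 and 36.3 CPM in control cells. The gain in paclitaxel-resistant cells was 1.14 ± 0.11 (limma adjusted p = 2.16e-15), and the peaks at its other annotated starts were higher by 1.07 and 1.17. This gain was in common with the surroundings. With the median of its 5 Mb region subtracted it was 0.34 (limma adjusted p = 0.0315), and of the 12 peaks over SOD2 the number called higher was 1 with the subtraction and 6 without it. The peaks at the other annotated starts were called higher under 17 of 18 settings, but not with the subtraction. The SOD2 gene-end peak, shared with ACAT2, fell by 0.37 in dual-resistant cells (limma adjusted p = 0.0136). That call was lost with quantile scaling, and without dual-resistant library 2 or either control library. The peaks at the other annotated starts of SOD2 were called in dual-resistant cells under 0 of 18 settings (-0.17 to 0.26). CAT, catalase, fell by 0.31 in cisplatin-resistant cells (limma adjusted p = 0.0279), and SOD1 was not called. The CAT call held under 12 of 18 settings, not without cisplatin-resistant library 2 or control library 1. It was also lost with quantile scaling, median-ratio scaling, regional medians subtracted and edgeR.

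NQO1 and HMOX1, textbook readouts of NRF2 activity, were open in all groups and differed little. NQO1, a quinone reductase, had 68.5 and 67.4 CPM in cisplatin-resistant, 82.4 and 79.6 CPM in paclitaxel-resistant and 56.4 and 55.7 CPM in dual-resistant cells, against 71.4 and 69.5 CPM in control cells. It fell by 0.33 ± 0.09 in dual-resistant cells (log2, limma adjusted p = 0.00561), a call lost with quantile scaling and without control library 1. Its difference of 0.20 in paclitaxel-resistant cells was not called (0.121), and was called at 0.37 with median-ratio scaling. HMOX1, which degrades haem, had 13.5 and 13.7 CPM in cisplatin-resistant, 10.2 and 12.1 CPM in paclitaxel-resistant and 14.6 and 13.9 CPM in dual-resistant cells, against 15.7 and 17.2 CPM in control cells. It fell by 0.55 ± 0.18 in paclitaxel-resistant cells (limma adjusted p = 0.0218), a call that 12 of 18 settings kept. Median-ratio scaling (-0.38), regional medians (-0.33), edgeR (-0.40), and leaving out paclitaxel-resistant library 1 or either control library ended it. OSGIN1, an oxidative stress-induced growth inhibitor, fell by 0.41 in cisplatin-resistant cells and rose by 0.48 in paclitaxel-resistant cells (limma adjusted p = 0.011 and 0.00524). Regional medians took the first to -0.08, and it was also lost with quantile and median-ratio scaling and without cisplatin-resistant or control library 1. The second was lost without paclitaxel-resistant or control library 2.

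The aldo-keto reductases AKR1C1, AKR1C2 and AKR1C3, which reduce steroids and reactive carbonyls and lie side by side on chromosome 10, had weak peaks that differed between lines. At the annotated start of AKR1C2, chr10:5003305-5004305, levels were 1.35 and 2.10 CPM in cisplatin-resistant, 1.34 and 1.01 CPM in paclitaxel-resistant and 6.80 and 4.51 CPM in dual-resistant cells, against 1.56 and 0.515 CPM in control cells. Only the dual-resistant libraries were raised, by 2.07 (log2, limma adjusted p = 8.81e-05, called under each of 18 settings). At the annotated start of AKR1C1 the levels were 3.49 and 1.99 CPM in cisplatin-resistant, 1.58 and 1.80 CPM in paclitaxel-resistant and 4.95 and 6.99 CPM in dual-resistant cells, against 2.21 and 1.29 CPM in control cells. The dual-resistant line was higher by 1.54 (limma adjusted p = 0.00123; called under 16 of 18 settings, not without dual-resistant or control library 2). AKR1C3 had 7.20 and 8.07 CPM in cisplatin-resistant, 2.67 and 1.35 CPM in paclitaxel-resistant and 3.71 and 5.05 CPM in dual-resistant cells, against 1.04 and 2.57 CPM in control cells, at its strongest peak. It rose by 1.90 in cisplatin-resistant cells (limma adjusted p = 3.55e-06) and by 1.15 in dual-resistant cells (0.0127; lost without dual-resistant library 2 or control library 1). By the rule, the gene-end peak of AKR1C2 lay at the upstream end of its RefSeq span, 14598 bp from the annotated start. That of AKR1C1 lay at the other end of the gene. These gene-end peaks gave other values. AKR1C1 there had 1.01 and 1.99 CPM in cisplatin-resistant, 2.55 and 1.80 CPM in paclitaxel-resistant and 5.69 and 5.70 CPM in dual-resistant cells, against 2.99 and 3.99 CPM in control cells, and fell by 1.03 in cisplatin-resistant cells (limma adjusted p = 0.018; lost without cisplatin-resistant library 1 or control library 2). AKR1C2 there had 4.50 and 2.92 CPM in cisplatin-resistant, 0.486 and 0.674 CPM in paclitaxel-resistant and 2.47 and 3.01 CPM in dual-resistant cells, against 0.520 and 1.16 CPM in control cells. It rose by 1.67 and 1.31 in cisplatin- and dual-resistant cells (limma adjusted p = 0.00132 and 0.029), of which the first was lost without cisplatin-resistant library 1. The second held under 13 of 18 settings, not without either dual-resistant library or control library 1. It was also lost with a pseudocount of 0.1 CPM and with quantile scaling. These genes are close paralogs, and reads that fit several of them make the values uncertain. AKR1B10 was not called.

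**Figure D3:**
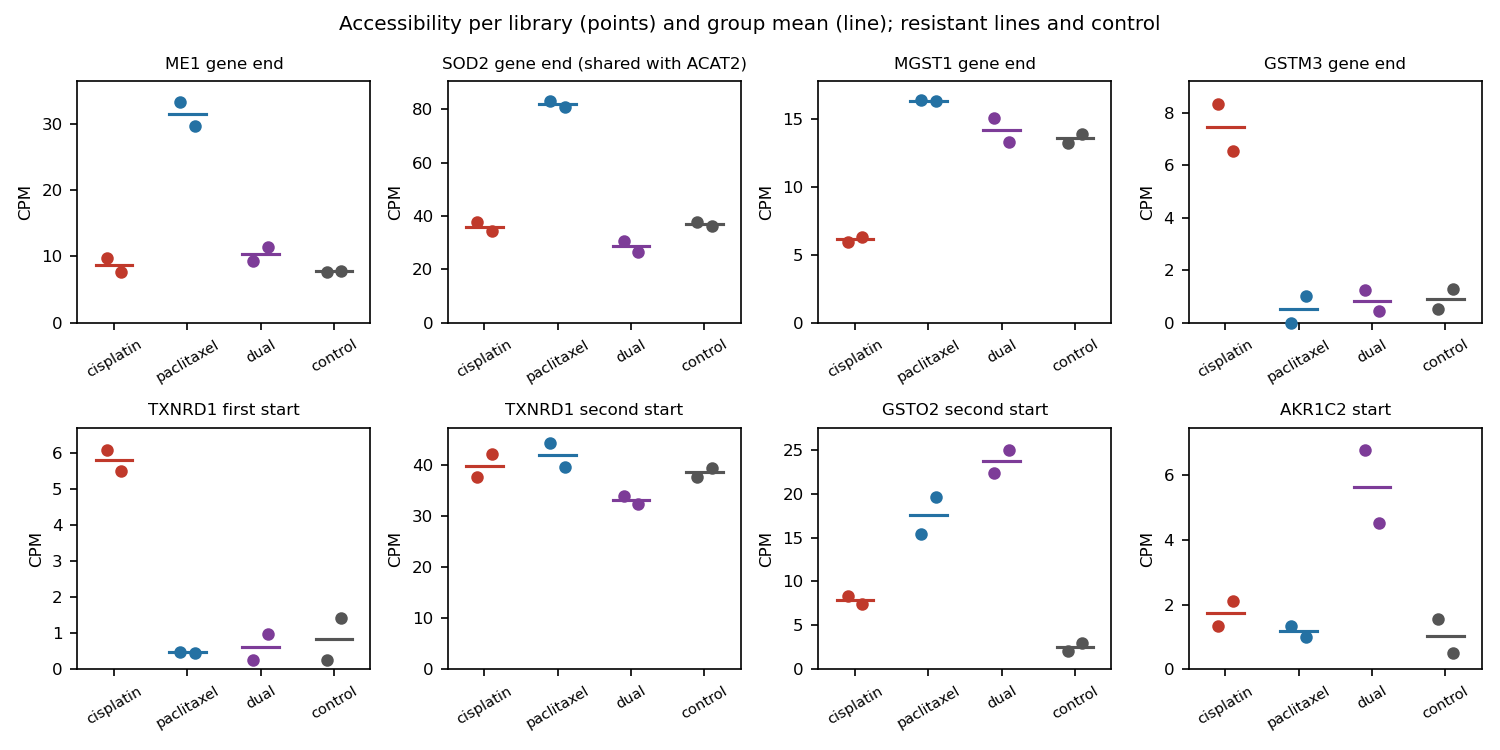
Accessibility in CPM (y axis, starting at 0) in each library (points) with the group mean (line) for 8 peaks, in cisplatin-, paclitaxel- and dual-resistant and control cells (x axis). ME1 and SOD2 are high in paclitaxel-resistant libraries, GSTM3 and the first start of TXNRD1 in cisplatin-resistant libraries, and the second start of GSTO2 is above control in every resistant library.

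**Figure D4:**
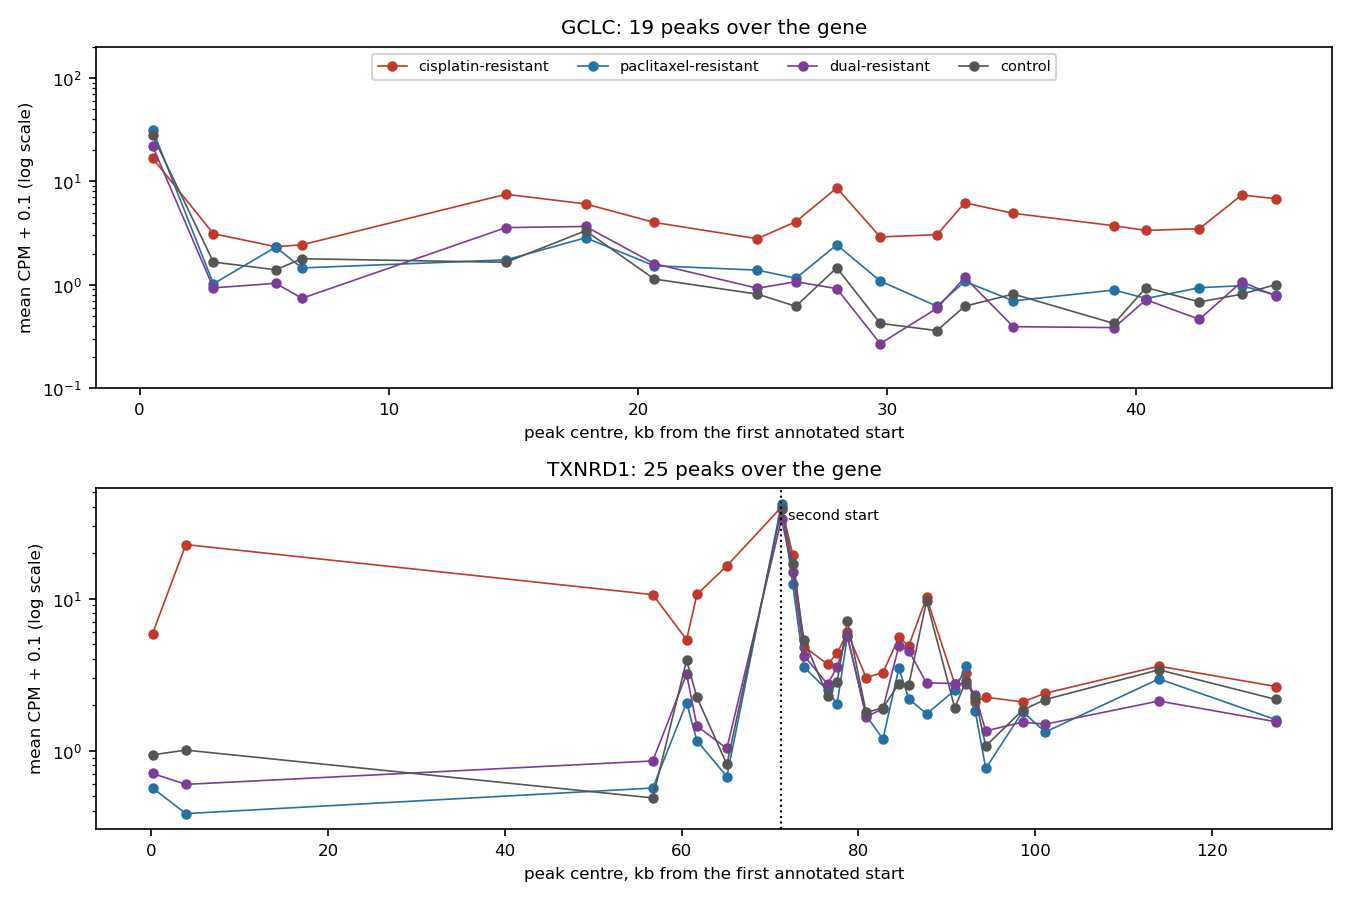
Mean level of each peak over GCLC (19 peaks) and TXNRD1 (25 peaks) in CPM + 0.1 on a log axis, by distance of the peak centre from the first annotated start in kb; lines join the peaks of a group (means of 2 libraries). The cisplatin-resistant line is lowest at the GCLC start and highest over most of the gene, and at TXNRD1 it stands apart mostly before the second start (dotted).

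The strongest peak over the span, used in place of the gene end, gave similar counts. In cisplatin-resistant cells 4 of 39 members were called higher and 11 lower, against 40.0% of all genes called (10.7% higher and 29.2% lower). In paclitaxel-resistant cells the counts were 7 and 2, against 22.9% (12.9% and 9.94%), and in dual-resistant cells 2 and 5, against 19.5% (5.44% and 14.1%). Scaling moved these splits too: quantile scaling gave 6 and 7 in cisplatin-resistant and 4 and 3 in dual-resistant cells. It called 36.7% and 14.5% of all genes there. Median-ratio scaling gave 5 and 5 for the cisplatin-resistant line, 16, all higher, for the paclitaxel-resistant line and 2 and 9 for the dual-resistant line. It called 32.6%, 32.2% and 26.3% of all genes in these lines. For 33 of 39 members the gene-end peak was itself the strongest. At the strongest peak on an annotated start, which 32 members had, 4 were called higher and 9 lower in cisplatin-resistant cells (39.4% of all genes, 9.68% higher and 29.7% lower). In paclitaxel-resistant cells 7 and 1 were called (23.2%, with 13.8% and 9.38%), and in dual-resistant cells 3 and 5 (20.2%, with 4.47% and 15.7%). Over the 194 distinct peaks in the members' spans, 40 were called higher and 20 lower in cisplatin-resistant cells, against 32.0% of such peaks over all genes (17.3% and 14.7%). The counts were 16 and 4 in paclitaxel-resistant cells, against 15.2% (6.75% and 8.46%), and 8 and 9 in dual-resistant cells, against 12.1% (6.63% and 5.51%). Of the 40 called higher in cisplatin-resistant cells, 15 lay in GCLC and 6 in TXNRD1.

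The resistant lines were also set against each other. In dual-resistant against cisplatin-resistant cells, 8 members were called higher and 9 lower (43.6%), where 36.5% of all gene ends were called (19.6% higher and 16.9% lower). Median-ratio scaling gave 2 and 13 there (38.5%, against 39.7% of all gene ends), and edgeR 2 and 12 (35.9%, against 38.7%). In dual-resistant against paclitaxel-resistant cells, 2 were called higher and 15 lower (43.6%), against 31.9% of all gene ends (7.58% higher and 24.3% lower). Quantile scaling called 5 members there, 12.8% against 18.3% of all gene ends. Leaving out paclitaxel-resistant library 1 or dual-resistant library 1 lowered both the members' count and the share of all gene ends called. In paclitaxel-resistant against cisplatin-resistant cells, 17 were called higher and 4 lower (53.8%), against 47.6% of all gene ends (34.5% higher and 13.1% lower). The opening of ME1 and SOD2 in paclitaxel-resistant cells was not shared by dual-resistant cells, which were lower by 1.57 ± 0.19 and 1.51 ± 0.11 (limma adjusted p = 4.13e-11 and 7.89e-22). Likewise the gains at GSTM3 and the first start of TXNRD1 in cisplatin-resistant cells were not shared by dual-resistant cells, which were lower by 2.63 ± 0.47 and 2.58 ± 0.47 (limma adjusted p = 1.94e-06 and 3.87e-06). GSTA4 was lower in dual-resistant than in paclitaxel-resistant cells by 0.85, and GPX1 lower in dual-resistant than in cisplatin-resistant cells by 0.85 (limma adjusted p = 2.75e-16 and 5.54e-07). GCLC was higher by 0.90 in paclitaxel-resistant than in cisplatin-resistant cells (limma adjusted p = 6.12e-08). These differences of single genes between lines were not followed under the other settings.

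Other genes of the pathway, from a list of 72 that are not members, were called about as often as all gene ends. Of 66 with a tested gene-end peak, 8 were called higher and 17 lower in cisplatin-resistant cells, 11 and 4 in paclitaxel-resistant cells and 3 and 8 in dual-resistant cells. These are 37.9%, 22.7% and 16.7% of the 66, against 39.7%, 22.4% and 19.7% of all gene ends. Values follow for those called with a difference of 1 or more in size in any of these comparisons. They were not followed under the other settings, so how far they depend on the scaling was not tested. Extracellular superoxide dismutase SOD3 was open in every resistant line, with 4.50 and 6.08 CPM in cisplatin-resistant, 5.10 and 4.27 CPM in paclitaxel-resistant and 5.69 and 7.31 CPM in dual-resistant cells, against 0.650 and 0.901 CPM in control cells. Its differences were 2.18, 2.03 and 2.45 (largest limma adjusted p = 3.02e-07). The carbonyl reductase gene CBR1 was likewise higher in every resistant line, with differences of 1.93, 2.66 and 2.76 (largest limma adjusted p = 1.22e-07). CHAC1, which degrades glutathione, was lower by 0.33, 0.85 and 1.01 in cisplatin-, paclitaxel- and dual-resistant cells (limma adjusted p = 0.0296, 2.59e-08 and 1.08e-10). EPHX1, an epoxide hydrolase, fell by 1.13 in cisplatin-resistant cells and the haem transporter SLC48A1 rose there by 1.79. BACH2, a repressor at antioxidant response elements, rose by 1.18 in paclitaxel-resistant cells, and the NRF2 relative NFE2L3 rose by 1.12 and 0.55 in paclitaxel- and dual-resistant cells. The cystine transporter gene SLC7A11, which feeds glutathione synthesis, was lower by 3.45 in the paclitaxel-resistant line and by 2.16 in the dual-resistant line (limma adjusted p = 3.21e-32 and 1.51e-18).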

How the data were processed

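ATAC-seq covered 8 libraries in 4 groups. The authors deposited CPM values for 159451 consensus peaks of 1001 bp, per the file headers and the values. The submitters' processing notes name Bowtie2, Picard, MACS2 and hg38. Versions, roles, multi-mapping reads, any Tn5 shift and the merging of peaks were not given in the sources used here. CPM scaled to a common total hides a change shared by all peaks. Each value was a whole number of reads within 0.01 for 100% of values.

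From these values, the 158698 peaks reaching 1 CPM in 2 or more libraries were taken as log2(CPM + 0.5). All 4 groups were fitted at once with limma 3.58.1 (R 4.3.3), with no term but group, a trended variance, and 4 residual and 98.5 prior degrees of freedom. SEs thus rest mostly on the trend over all peaks. With 2 libraries per group an exact permutation test cannot reach the threshold. The threshold was an adjusted p of 0.05, by Benjamini and Hochberg's method across the tested peaks. Genes were placed with RefSeq spans and annotated starts, so exons, introns and untranslated regions were not resolved. Where a gene has several starts they are numbered along its strand. The fit was tested on simulated data.

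Per-library values are given for members called with a log2 difference of 1 or more in size at the gene-end or strongest span peak against control, and always for NFE2L2, KEAP1, GCLC, GCLM, GSR, GSTP1, NQO1, HMOX1, TXNRD1 and SRXN1. GSTO2, GPX1, GPX8, GSTA4, TXN and single peaks within genes were added after their values were seen. The members and lists were chosen with earlier results of these data known. Alternatives were other pseudocounts (1 and 0.1 CPM), no filter, quantile and median-ratio scaling, subtraction of 5 Mb regional medians, fits of the compared groups alone, a replicate block, edgeR 4.0.16 on recovered reads, a 2 kb window, the peak at the annotated start, and leaving out each library.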

Additional observations from a re-analysis of the deposited data

Results flagged for a closer look

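The following gene ends differed between resistant lines by at least 1 on the log2 scale, by limma's test of the difference itself at an adjusted p under 0.05. In dual-resistant against cisplatin-resistant cells, GSTM3 differed by -2.63, TXNRD1 at its first start by -2.58, MGST1 by 1.15 and AKR1C1 by 1.67. In dual-resistant against paclitaxel-resistant cells, ME1 differed by -1.57, SOD2 by -1.51, AKR1C1 by 1.23 and AKR1C2 by 1.59. In paclitaxel-resistant against cisplatin-resistant cells, GSTM3 differed by -3.18, TXNRD1 by -2.70, AKR1C2 by -1.94, SOD2 by 1.18, MGST1 by 1.34 and ME1 by 1.81. The values of AKR1C1 are of the peak at the end of the gene opposite its annotated start. Those of AKR1C2 are of the peak at the upstream end of its span, 14598 bp from its annotated start. None of these differences between lines was followed under the other settings. Groups of 2 libraries are too small for a search for single libraries that stand apart.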

How the results depend on the processing

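Counts of members called at the gene end moved by over 1.5 times under these settings. In paclitaxel-resistant cells against control, 8 calls became 16 with median-ratio scaling, 14 with regional medians subtracted and 16 with edgeR. All gene ends called went from 22.4% to 32.1%, 29.0% and 31.4%. In dual-resistant cells against control, 5 became 8, 11 and 8 under the same settings, and 8 at the annotated start. The share of all gene ends called there went from 19.7% to 27.1%, 25% and 29.4%, and was 20.2% at the annotated start. In dual-resistant against paclitaxel-resistant cells, 17 became 5 with quantile scaling, and all gene ends called went from 31.9% to 18.3%. At the strongest span peak, the paclitaxel-resistant count of 9 became 16, 14 and 16, and the dual-resistant count of 7 became 11, 14 and 11. All genes called there went from 22.9% to 32.2%, 29.0% and 31.4%, and from 19.5% to 26.3%, 24.6% and 28.5%. Leaving out each library in turn gave 9 to 15 calls at the gene end in cisplatin-resistant, 5 to 8 in paclitaxel-resistant and 0 to 6 in dual-resistant cells against control, 12 to 16 in dual-resistant against cisplatin-resistant, 11 to 17 in dual-resistant against paclitaxel-resistant and 17 to 21 in paclitaxel-resistant against cisplatin-resistant cells. At the span peak the ranges against control were 9 to 15, 5 to 9 and 2 to 8. Without control library 1, the cisplatin- and dual-resistant counts against control were lower, and so was the share of all gene ends called. Both were also lower for the paclitaxel-resistant line without control library 2, and for the dual-resistant line without dual-resistant library 1. In dual-resistant against paclitaxel-resistant cells, both were lower without library 1 of either line. Among values called either as reported or under the alternative, directions turned for MGST1 in dual-resistant cells with regional medians subtracted (-0.92), and at the annotated start for SRXN1 in paclitaxel-resistant cells (-0.54) and AKR1C1 in cisplatin-resistant cells (0.52), where the peak itself is another one. Beyond that the cause was not tested. Over named genes, 494 of 522 values under other settings and 363 of 384 with a library left out stayed on their side of the threshold with no called value turning. Counted with values not called, 30 and 17 changed sign. All these values of named genes are differences from control. Differences between resistant lines were not followed gene by gene under the other settings. With the replicate block the counts stayed at 15, 8 and 5 against control, and the block changed no call among named genes in those comparisons. Library numbers did not pair, since deviations of same-numbered libraries correlated by -0.0006 to 0.0033. Depth limits weak peaks most: at AKR1C2, GSTM3 and the first start of TXNRD1 several libraries lay near the floor of 3 reads. The AKR1C1 peaks were weak too, but above that floor. The authors' scaling to a common total leaves a shift of all peaks unseen, and 2 libraries per group leave each call resting on the pooled spread.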
